A study of Rattus norvegicus with 59 samples.

Results

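8 genes of fatty acid use were followed in nuclear RNA of rat heart: *Cd36*, *Cpt1a*, *Cpt1b*, *Acadm*, *Pdk4*, *Ucp3*, *Ppara* and *Ppargc1a*. They were picked by gene ID for their known roles, not by a threshold on their values, and are 8 of the 22938 gene IDs in the count tables. The fuel-handling genes are *Cd36* (ENSRNOG00000005906), *Cpt1a* (ENSRNOG00000014254), *Cpt1b* (ENSRNOG00000010438) and *Acadm* (ENSRNOG00000009845). The fasting-responsive genes are *Pdk4* (ENSRNOG00000009565) and *Ucp3* (ENSRNOG00000017716), and the regulators are *Ppara* (ENSRNOG00000021463) and *Ppargc1a* (ENSRNOG00000004473). Fatty acids are the main fuel of the adult heart: they enter the muscle cell through the translocase CD36, are bound to carnitine at the outer mitochondrial membrane by the carnitine palmitoyltransferases, and are broken down by β-oxidation in the matrix. The nuclear receptor PPARα and its coactivator PGC-1α switch on many genes of this pathway. In hearts under long-lasting pressure load the pathway has often been described as turned down, while endurance training is usually described as sparing or raising it.

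All animals were male Sprague Dawley rats, and the RNA came from left ventricular nuclei sorted for PCM1, a centriolar satellite protein used to mark cardiomyocyte nuclei. In the banded group the ascending aorta was tied with a suture at a body weight of about 170 g, and the hearts were examined after 6 weeks. Only banded rats with a thickened, non-failing heart were kept, so the group holds selected animals. Their sham-operated counterparts went through the operation without the tie. In the trained group, rats of about 280 g ran uphill on a treadmill, 6 days a week for 6 weeks, in 12 intervals of 8 min at an incline of 25 degrees. Untrained control rats had the same start weight. Each group had 4 libraries with counts. The spread between sham replicates 2 and 3 was 1.07 times the counting variance, close to sampling noise, against 2.70 to 28.2 times for the 23 remaining within-group pairs. Their counts were added and they were used as 1 sample, which leaves 15 samples and n = 3 for sham.

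Depth ran from 2575080 to 14394757 counts in banded, 3181309 to 14108697 in sham, 2136476 to 7595166 in trained and 1822538 to 7802197 in control libraries. The cardiomyocyte label was not checked gene by gene, since no file pairs other IDs with names. In its place, each library's share of counts was read from 1319 genes whose level in PCM1-negative nuclei is over 8 times that in PCM1-positive nuclei in the authors' deposited table. It was 4.45% in banded replicate 1 and 4.32% in sham replicate 1, and 0.536% to 1.68% in the other 14 libraries. Changes for banded over sham, *Cd36* for sham over control and the 2 correlations that passed are given below with and without those 2. Values are counts per 1000000 of a library's total (CPM). They are not scaled by gene length, so levels of different genes are not compared. They describe RNA in nuclei, and fewer nuclei of a kind and less RNA per nucleus cannot be told apart.

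All 8 genes sat on the cardiomyocyte side of the sort. In the authors' deposited table each had a false discovery rate (FDR) under 0.05 as higher in PCM1-positive than in PCM1-negative nuclei, against 24.0% of the 12848 genes listed there. 5 of the 8 were more than 8-fold higher, against 4.70% of the listed genes. In the authors' deposited table *Cpt1b*, the muscle form of carnitine palmitoyltransferase 1, had the widest gap of the 8, at 26.4-fold (FDR 4.65e-20). The others past 8-fold in the authors' deposited table were *Pdk4* at 18.8-fold, *Ppara* at 18.1-fold, *Ucp3* at 13.9-fold and *Ppargc1a* at 12.7-fold. *Cpt1a*, the form best known from liver, had the narrowest gap there, at 3.60-fold (FDR 1.24e-05). *Acadm* stood at 5.93-fold and *Cd36*, which endothelial cells and macrophages also make, at 5.12-fold (FDR 0.0177) in the authors' deposited table. The table's columns name no direction. Its label puts PCM1-positive first, but its log2 fold was negative for all 8 genes, such as -4.72 for *Cpt1b*. The direction was read from control replicate 1, a PCM1-positive library. The authors' fold had r = -0.85 with that library's level relative to the table's average, across 12848 genes, which are not independent replicates. The folds are therefore given with the sign turned, and they carry no error here.

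**Figure D1:**
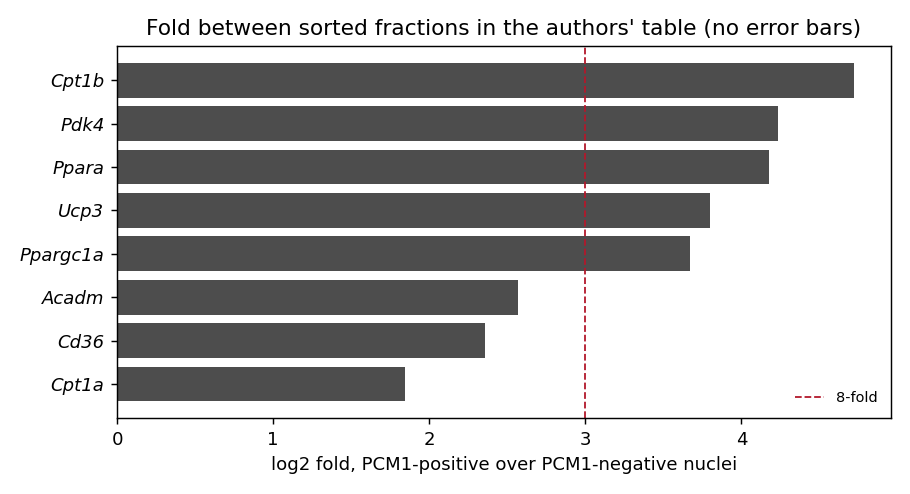
Log2 fold of the 8 genes between PCM1-positive and PCM1-negative nuclei (horizontal axis) in the authors' deposited table, 1 bar per gene and no error. The sign is turned against the deposited log2 folds. All bars lie above 0, and 5 pass the dashed line at 8-fold, from *Ppargc1a* (12.7-fold) to *Cpt1b* (26.4-fold).

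Whether pressure load or training moved the pathway was then tested gene by gene, with every gene fitted on its whole table. None of the 8 genes passed an adjusted p of 0.05 in either comparison (edgeR quasi-likelihood test, Benjamini-Hochberg adjustment over all genes tested). For banded over sham this held for 0 of 8, against 0.00788% of the 12689 genes tested, and for trained over control 0 of 8, against 0.00% of the 10815 genes tested. At an unadjusted p under 0.05 the counts were also 0 of 8, against 1.84% and 7.04% of the genes tested. Under alternative settings and with samples left out, *Cd36* had an unadjusted edgeR, voom or DESeq2 p under 0.05 for banding in 8 of 18 fits and *Acadm* in 1 of 17. For training this held for *Pdk4* and *Ppara* in 1 of 16 fits each, and for the other members in none. Among all genes tested, 120 of 13033 to 792 of 12305 had such a p across these fits for banding. For training it was 482 of 12650 to 921 of 10734. The fits reuse the same libraries and are not independent of each other. The median log2 fold change of the 8 was -0.05 for banded over sham, with 3 positive and 5 negative values, and 0.04 for trained over control, with 4 of each sign. Over all genes tested the medians were -0.01 and -0.01. The labels do not say that each library came from a separate rat, and the spread behind each p-value may therefore be technical in part.

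**Figure D2:**
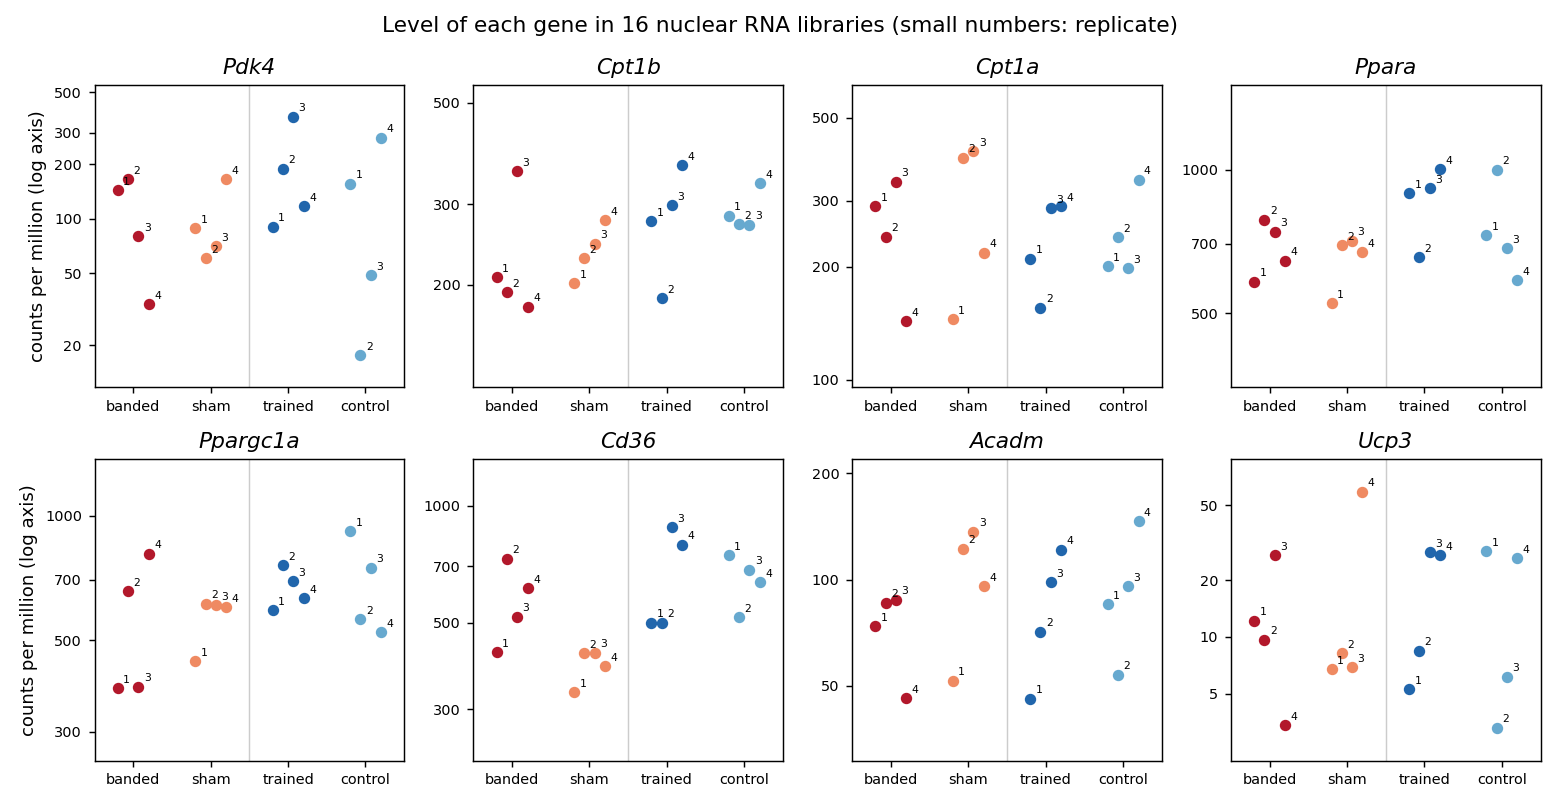
Level of each gene in CPM (vertical, log axis) in each of the 16 libraries, by group, with the replicate number beside each point. The banded and sham points of *Cd36* do not overlap, while the highest library was 20.9-fold above the lowest for *Pdk4* and 17.9-fold for *Ucp3*.

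*Cd36*, the fatty acid translocase, had the lowest p of the 8 for banding. It was at 421, 731, 519 and 615 CPM in banded replicates 1 to 4, against 332, 419, 419 and 387 CPM in sham replicates 1 to 4. Every banded library lay above every sham library, though banded replicate 1 did so by a narrow margin: it had 420.9 CPM, against 419.8 CPM in the merged sham sample. The means were 571 ± 133 CPM in banded (SD, n = 4) and 379.6 ± 44.6 CPM in sham rats (SD, n = 3). The fitted change was 1.51-fold with a 95% interval of 0.979 to 2.32 (log2 fold change 0.59, SE 0.27, edgeR adjusted p = 1.00), so it did not pass the test. *Cd36* was the 1 member whose groups did not overlap here, as was the case for 3.20% of the genes tested. Banded replicate 1 and sham replicate 1, the libraries with the high share of PCM1-negative-enriched genes, were each the lowest of their group for *Cd36*. Without both, the log2 fold change was 0.61 (SE 0.23, edgeR adjusted p = 1.00). With single samples left out it ran from 0.41 (without banded replicate 2) to 0.76 (without banded replicate 1). The part of that share in the result was not tested.

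In the exercise experiment *Cd36* stood at 501, 501, 882 and 794 CPM in trained replicates 1 to 4 and at 746, 518, 685 and 637 CPM in control replicates 1 to 4. The groups overlapped, as they did for all 8 genes with training (4.15% of the genes tested had groups without overlap), and the fitted change was 1.06-fold (95% interval 0.794 to 1.41, edgeR adjusted p = 0.964). The banding effect minus the training effect on *Cd36* was 0.50 on the log2 scale (SE 0.34, 95% interval -0.23 to 1.23, edgeR adjusted p = 1.00), so a difference between both kinds of growth was not detectable at this spread. The groups stood in the order trained, control, banded and sham by their mean, and the last 2 were the 1 neighbouring pair without overlap.

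The sham level of *Cd36* was also the lowest set beside the untrained controls. Its means were 379.6 ± 44.6 CPM in sham (SD, n = 3) and 646 ± 96.5 CPM in control rats (SD, n = 4), and every sham library lay below every control library. The log2 fold change of sham over control was -0.83 (SE 0.26, 95% interval -1.38 to -0.29, edgeR adjusted p = 0.132). It therefore missed the threshold in edgeR, with adjusted p between 0.0392 and 0.471 over the alternatives, and passed it in 1 of them, DESeq2 (adjusted p = 0.0392). Without banded replicate 1 and sham replicate 1 the log2 fold change of sham over control was -0.70 (SE 0.24, edgeR adjusted p = 0.257). Of all genes tested, 0.941% passed in edgeR, 16.9% had an unadjusted p under 0.05 and 13.3% had groups without overlap, so groups without overlap, as for *Cd36*, were common in this comparison. Experiment, start weight and operation differ together between sham and control rats and cannot be told apart. The share of counts from PCM1-negative-enriched genes also differed, with a mean of 2.19% in sham (0.666% to 4.32%, n = 3) and 0.791% in control rats (0.536% to 0.956%, n = 4), and its part in the result was not tested. The other 7 genes had log2 fold changes of sham over control between -0.38 and 0.51, overlapping groups and adjusted p of 0.529 or more in edgeR.

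The gene whose level followed *Cd36* most closely was ENSRNOG00000040108, with r = 0.998 over the 15 samples on the log2 scale. Its count was 88.1% to 95.2% of the *Cd36* count in every one of the 16 libraries. The files give it no name. In the reference gene table of assembly GRCr8, *Cd36* is followed on the same chromosome by copies of the gene named *Cd36l1* and *Cd36-ps1*, and reads that match more than 1 copy cannot be assigned with certainty. No source used here states the counting rule, and the *Cd36* count may hold reads of a copy, or share its own. ENSRNOG00000040108 had a log2 fold change of 0.66 for banded over sham (SE 0.28, edgeR adjusted p = 1.00) and -0.87 for sham over control (SE 0.27, edgeR adjusted p = 0.131). With both IDs added together, an alternative chosen after seeing the data, *Cd36* had log2 fold changes of 0.62 (SE 0.28, edgeR adjusted p = 1.00) and -0.85 (SE 0.26, edgeR adjusted p = 0.136).

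*Cpt1a* and *Cpt1b* encode the liver and muscle forms of the enzyme that commits long-chain fatty acids to the mitochondrion. *Cpt1b* was at 208, 193, 355 and 179 CPM in banded replicates 1 to 4 and at 202, 229, 246 and 277 CPM in sham replicates 1 to 4. It was at 275, 187, 298 and 365 CPM in trained replicates 1 to 4, against 283, 272, 271 and 334 CPM in control replicates 1 to 4. The groups overlapped, and both fitted changes were near 1-fold: 0.959 for banding (95% interval 0.607 to 1.52) and 0.996 for training (95% interval 0.778 to 1.28). *Cpt1a* was at 290.1, 241, 337 and 143 CPM in banded replicates 1 to 4, against 145, 392, 408 and 218 CPM in sham replicates 1 to 4. In the exercise experiment it was at 210.3, 156, 287 and 290.5 CPM in trained and 201, 240.3, 199 and 342 CPM in control replicates 1 to 4. Here too the groups overlapped, with fitted changes of 0.956-fold for banding (95% interval 0.501 to 1.83) and 0.991-fold for training (95% interval 0.728 to 1.35). Neither gene's 4 group means differed between neighbours by more than the larger of the 2 SDs.

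*Acadm* encodes medium-chain acyl-CoA dehydrogenase, an enzyme of β-oxidation itself. It was at 73.9, 86.1, 87.8 and 46.1 CPM in banded replicates 1 to 4, against 51.7, 122, 137 and 95.8 CPM in sham replicates 1 to 4. Sham replicate 1 was the low one among the sham libraries, and the groups overlapped. The fitted change was 0.766-fold (95% interval 0.424 to 1.38, edgeR adjusted p = 1.00). The log2 fold change was -0.38, and with single samples left out it ran from -0.72 (without sham replicate 1) to -0.012 (without the merged sham replicates 2 and 3). The edgeR adjusted p was 1.00 in both. With training *Acadm* was at 46.0, 71.1, 98.4 and 121 CPM, against 85.2, 53.8, 95.6 and 146 CPM in controls, and the fitted change was 0.906-fold (95% interval 0.580 to 1.42). The gene most like *Acadm* over the 15 samples was ENSRNOG00000016692 (r = 0.96), which the files do not name.

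*Ppara*, the fatty-acid-activated receptor, was among the steadier of the 8. It was at 583, 787, 741 and 646 CPM in banded replicates 1 to 4 and at 526, 696, 709.8 and 672 CPM in sham replicates 1 to 4. It was at 894, 656, 916 and 1005 CPM in trained replicates 1 to 4 and at 729.8, 1001, 684 and 587 CPM in control replicates 1 to 4. 3 of the 4 trained libraries lay above 3 of the 4 controls, while trained replicate 2 and control replicate 2 broke that order. The fitted change was 1.18-fold for training (95% interval 0.910 to 1.54, edgeR adjusted p = 0.824) and 1.08-fold for banding (95% interval 0.739 to 1.57). The log2 fold change with training was 0.24, and with single samples left out it ran from 0.13 (without control replicate 4, edgeR adjusted p = 0.935) to 0.41 (without control replicate 2, edgeR adjusted p = 0.795).

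*Ppargc1a*, which encodes the coactivator PGC-1α, fell into pairs among the banded libraries: 382 and 386 CPM in replicates 1 and 3, and 656 and 810.0 CPM in replicates 2 and 4. The sham replicates 1 to 4 were at 445, 612, 607 and 601 CPM, between those pairs. Trained replicates 1 to 4 were at 591, 759.7, 695 and 632 CPM, and control replicates 1 to 4 at 917, 562, 748 and 523 CPM. The fitted changes were 1.01-fold for banding (95% interval 0.584 to 1.75) and 0.994-fold for training (95% interval 0.761 to 1.30). The groups overlapped in both experiments. The training interval was the narrower one, as it was for every other gene except *Pdk4*.

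**Figure D3:**
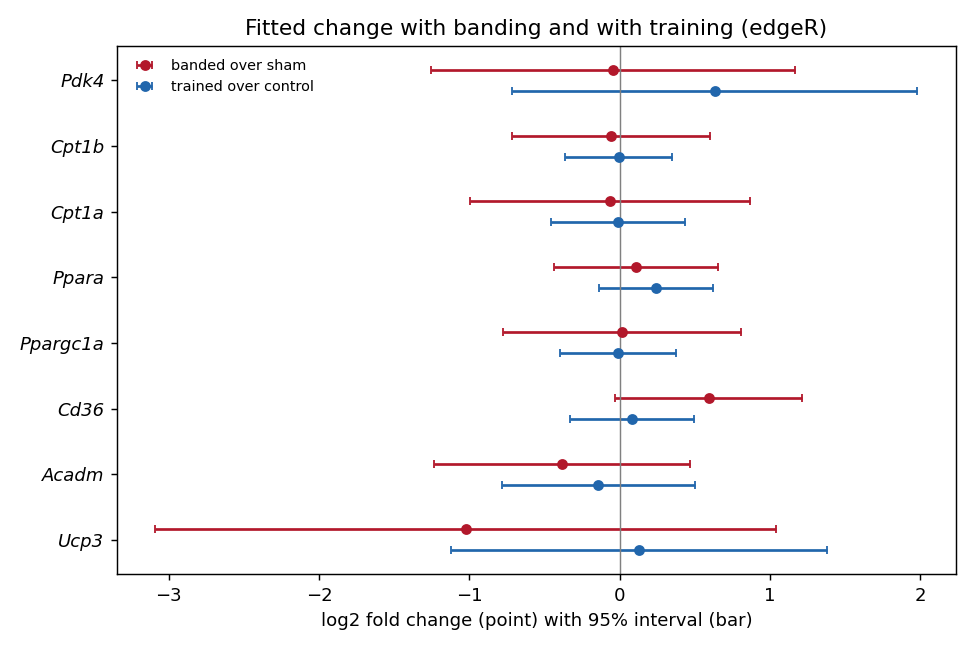
Log2 fold change of each gene (points) with its 95% interval (bars) for banded over sham and trained over control, from edgeR. Every interval crosses 0. *Cd36* with banding comes closest to clearing it (-0.03 to 1.22), and *Ucp3* with banding has the widest interval.

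*Pdk4* and *Ucp3* are known in muscle as fast responders to fasting and to a rise in circulating fatty acids. PDK4 is the kinase that shuts off pyruvate dehydrogenase and so spares glucose, and UCP3 is an uncoupling protein of the inner mitochondrial membrane. *Pdk4* was at 144, 166, 80.0 and 33.6 CPM in banded replicates 1 to 4, against 89.0, 60.4, 70.4 and 166 CPM in sham replicates 1 to 4. In the exercise experiment it was at 90.2, 189, 367 and 117 CPM in trained replicates 1 to 4, against 156, 17.6, 48.9 and 280.3 CPM in control replicates 1 to 4. The groups overlapped in both experiments, and the controls alone ran from 17.6 to 280.3 CPM. The fitted change with training was 1.55-fold, with an interval of 0.608 to 3.95 (edgeR adjusted p = 0.872), and with banding 0.968-fold (95% interval 0.419 to 2.24). Without control replicate 4 the log2 fold change with training was 1.33 (SE 0.60, edgeR adjusted p = 0.778), and without trained replicate 3 it was 0.10 (SE 0.63).

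*Ucp3* was the least abundant of the 8 in counts, with 6 to 749 counts a library. It was at 12.2, 9.66, 27.2 and 3.40 CPM in banded replicates 1 to 4, against 6.73, 8.17, 6.91 and 58.9 CPM in sham replicates 1 to 4. Sham replicate 4 stood far above the other sham libraries and set the sign of the comparison. The fitted change was 0.492-fold (95% interval 0.117 to 2.06, log2 fold change -1.02), while without sham replicate 4 the log2 fold change was 0.88 (SE 0.71) and without banded replicate 3 it was -1.62 (SE 0.97). *Ucp3* was at 5.28, 8.43, 28.2 and 27.1 CPM in trained replicates 1 to 4 and at 28.6, 3.29, 6.16 and 26.1 CPM in control replicates 1 to 4. Both exercise groups thus held 2 high and 2 low libraries, with a fitted change of 1.09-fold (95% interval 0.459 to 2.60).

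Leaving out banded replicate 1 and sham replicate 1 together moved several of these values for banded over sham, and none of the 8 passed (edgeR adjusted p = 1.00 for each). Without both libraries the log2 fold change was -0.65 for *Acadm* (-0.38 with them), -0.39 for *Cpt1a* (-0.06 with them) and -0.12 for *Cpt1b* (-0.06 with them). Among the others it was -0.31 for *Pdk4* (-0.05 with them) and -1.46 for *Ucp3* (-1.02 with them). The regulators stayed close to 0, at 0.058 for *Ppara* (0.11 with them) and 0.015 for *Ppargc1a* (0.02 with them).

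What set *Pdk4* and *Ucp3* apart was this spread between samples of the same group. The within-group SD of log2(CPM + 0.5), pooled over the 4 groups, was 1.37 for *Ucp3* and 1.20 for *Pdk4*, against a median of 0.32 over the 12650 genes tested. They lay at the 99.9th and 99.8th percentile of all genes tested. The other 6 had SDs of 0.58 (*Acadm*), 0.51 (*Cpt1a*), 0.37 (*Ppargc1a*), 0.34 (*Cpt1b*), 0.32 (*Cd36*) and 0.26 (*Ppara*). For *Ucp3* the SD was 1.42 over the 7 surgery samples and 1.32 over the 8 exercise samples, at percentiles of 99.5 and 99.8. For *Pdk4* it was 0.91 over the surgery samples, at the percentile 89.2, and 1.40 over the exercise samples, at the percentile 99.8. In surgery *Cpt1a* (0.63) and *Acadm* (0.55) came next. The lowest library held 32 counts of *Pdk4* and 6 of *Ucp3*, so for *Ucp3* counting error adds to the spread.

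**Figure D4:**
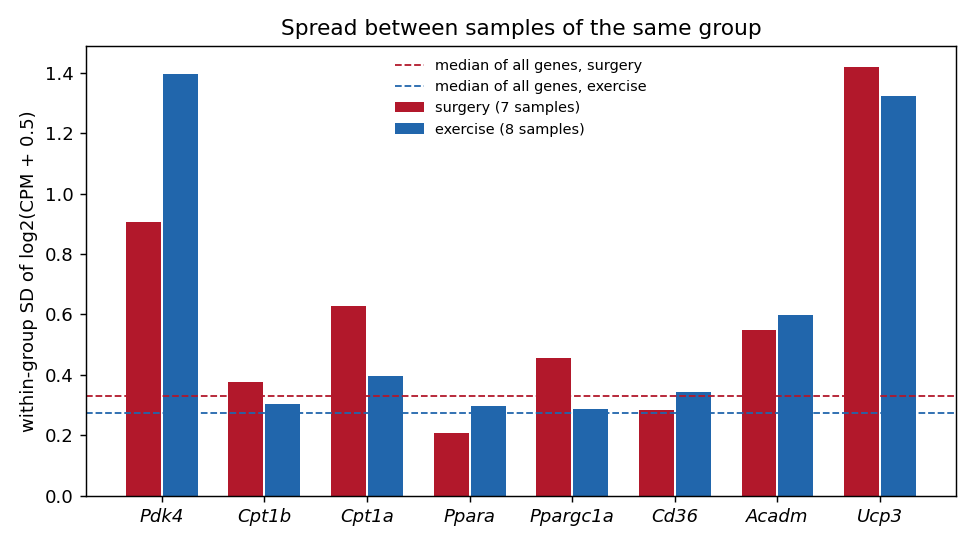
Within-group standard deviation of log2(CPM + 0.5) for each gene (bars) in the surgery (7 samples) and exercise (8 samples) experiments, with the median over all genes tested as dashed lines. *Ucp3* (1.42 and 1.32) and *Pdk4* (0.91 and 1.40) have the highest bars in both experiments, with *Pdk4* closer to *Cpt1a* (0.63) in surgery.

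The levels of both genes went together over the libraries in part. Over the 15 samples log2(CPM + 0.5) of *Pdk4* and *Ucp3* correlated with Pearson's r = 0.71 (permutation p = 0.00230, 0.0409 adjusted over the 28 pairs of the 8 genes) and Spearman's rho = 0.70 (permutation p = 0.00481, adjusted 0.0673). The relation was present within the surgery samples (r = 0.64, n = 7) and within the exercise samples (r = 0.80, n = 8), and was 0.74 for deviations from the group means. Without the 2 samples farthest from the median of *Pdk4* it was 0.54 (permutation p = 0.0600, adjusted 0.380) and no longer passed. Without banded replicate 1 and sham replicate 1 it was 0.72 (permutation p = 0.00492, adjusted 0.101, n = 13). There too the pair did not pass, although r was no lower. Why the pair did not pass in either case was not tested. In 3 of the 4 groups the library lowest for *Pdk4* was also the lowest for *Ucp3*: banded replicate 4 (33.6 and 3.40 CPM), trained replicate 1 (90.2 and 5.28 CPM) and control replicate 2 (17.6 and 3.29 CPM). In the sham group the highest library was shared, replicate 4, at 166 CPM of *Pdk4* and 58.9 CPM of *Ucp3*. The trained group also shared it, in replicate 3, at 367 CPM of *Pdk4* and 28.2 CPM of *Ucp3*. The banded group had no such match at the top: replicate 2 was highest for *Pdk4* (166 CPM) with 9.66 CPM of *Ucp3*, and replicate 3 was highest for *Ucp3* (27.2 CPM) with 80.0 CPM of *Pdk4*. Nor had the control group, with replicate 4 highest for *Pdk4* (280.3 CPM) and replicate 1 for *Ucp3* (28.6 CPM). Trained replicate 2 was also high for *Pdk4* (189 CPM) and low for *Ucp3* (8.43 CPM).

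*Cpt1a* and *Acadm* formed the other pair past the threshold, with r = 0.72 (permutation p = 0.00292, adjusted 0.0409) and rho = 0.73 (permutation p = 0.00271, adjusted 0.0673). It was 0.88 within surgery (n = 7) and 0.60 within exercise (n = 8). Without the 2 samples farthest from the median of *Cpt1a* it was 0.59 (permutation p = 0.0358, adjusted 0.380) and no longer passed. Without banded replicate 1 and sham replicate 1 it was 0.71 (permutation p = 0.00718, adjusted 0.101, n = 13) and did not pass either. Over the 15 samples, Pearson's r of both pairs passed after adjustment and Spearman's rho did not. Other genes correlated more strongly with each of these 4 genes. Among the 12650 genes tested, *Ucp3* ranked 26 by r with *Pdk4*, and *Pdk4* ranked 19 with *Ucp3*. *Acadm* ranked 23 with *Cpt1a*, and *Cpt1a* ranked 41 with *Acadm*. The share of all gene pairs with such a p was not computed. *Acadm* and *Ucp3* followed at r = 0.64 and rho = 0.58 (adjusted permutation p = 0.104 and 0.132). The median r of the 28 pairs was 0.26, while the median over all pairs of the 12650 genes tested was 0.05. All 8 genes were higher in PCM1-positive nuclei, so these medians do not compare like sets of genes. Without banded replicate 1 and sham replicate 1 some pairs turned negative and none turned positive. *Ppara* and *Acadm*, for example, went from 0.02 to -0.22. Over the 15 samples *Ppara* and *Ppargc1a*, the regulators, had r between -0.17 and 0.02 with *Acadm*, *Pdk4* and *Ucp3*, in 6 pairs. Within surgery (n = 7) *Ppara* had r of 0.60, 0.11 and 0.26 with these genes in turn. Within exercise (n = 8) it had -0.39, -0.39 and -0.17. *Ppargc1a* had -0.077, -0.37 and -0.36 in surgery and -0.0063, 0.19 and 0.23 in exercise. The r within each experiment rest on 7 or 8 samples and were not tested, so neither a relation nor its absence is shown there. These are relations between whole libraries, which share depth and the composition of the sorted nuclei.

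**Figure D5:**
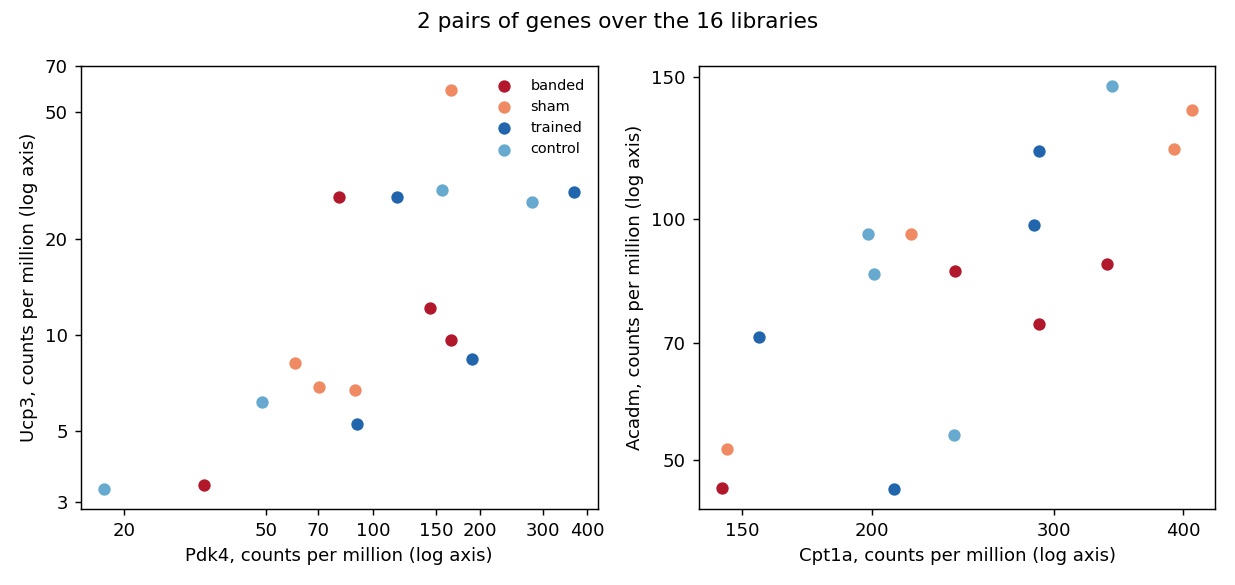
Level of *Ucp3* against *Pdk4* (left) and of *Acadm* against *Cpt1a* (right), in CPM on log axes, with 1 point per library coloured by group (16 libraries, sham replicates 2 and 3 shown apart). The groups are mixed along both trends, and the lowest *Pdk4* library (control replicate 2) is also the lowest for *Ucp3*.

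The start regions of the genes that varied most are shown from RefSeq (assembly GRCr8, 250 bases before to 50 after the start of the gene, 5′ to 3′ on the gene's strand), because the levels of *Pdk4* and *Ucp3* correlated over the libraries. That of *Cd36* is added as the gene with the lowest p for banding. Capitals mark matches to the receptor core motif AGGTCA or to 2 such cores 1 base apart, the arrangement bound by PPARα with its partner RXR. *Ucp3* lies at chr1:164227660-164227959 (+), *Pdk4* at chr4:34568280-34568579 (-) and *Cd36* at chr4:18246332-18246631 (+).
Ucp3: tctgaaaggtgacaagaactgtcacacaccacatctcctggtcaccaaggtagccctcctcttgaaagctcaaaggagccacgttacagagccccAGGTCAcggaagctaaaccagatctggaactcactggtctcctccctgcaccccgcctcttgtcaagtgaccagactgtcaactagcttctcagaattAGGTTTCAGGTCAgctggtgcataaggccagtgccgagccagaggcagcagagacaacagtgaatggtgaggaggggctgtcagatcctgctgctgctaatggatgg
Pdk4: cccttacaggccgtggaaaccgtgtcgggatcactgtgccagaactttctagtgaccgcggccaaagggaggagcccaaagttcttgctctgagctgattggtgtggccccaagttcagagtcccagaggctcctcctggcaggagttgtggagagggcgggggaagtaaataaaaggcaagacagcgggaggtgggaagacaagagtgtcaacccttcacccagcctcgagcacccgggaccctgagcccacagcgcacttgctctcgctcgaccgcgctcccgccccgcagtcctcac
Cd36: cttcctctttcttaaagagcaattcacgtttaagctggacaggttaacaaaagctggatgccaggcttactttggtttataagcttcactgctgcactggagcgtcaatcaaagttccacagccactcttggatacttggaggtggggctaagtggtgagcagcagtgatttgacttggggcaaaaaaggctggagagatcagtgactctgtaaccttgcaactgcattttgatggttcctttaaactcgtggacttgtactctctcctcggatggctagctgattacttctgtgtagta

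7 of the 8 genes had an entry in this promoter table, and *Cpt1b* is named here without one. On both strands, AGGTCA occurred in 1 of the 7, *Ucp3*, whose window holds it at positions -155 and -50 from the start, against 16.2% of the 33469 windows in the table. 2 cores 1 base apart with up to 2 mismatches occurred in the *Ucp3* window as well, beginning at position -57 and overlapping the second AGGTCA, against 3.77% of all windows. With 0 or 1 mismatches none of the 7 held it (0.0538% and 0.439% of all windows). TCAAGGTCA, the motif of the estrogen-related receptors, occurred in none of the 7 with 0 or 1 mismatches (0.433% and 7.29% of all windows). *Pdk4* and *Cd36* held none of the motifs searched. A match is a run of letters, not a bound site.

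The authors' own group values for the 8 genes differ from the fitted changes in places. In the authors' deposited tables, 3 of the 8 had an FDR under 0.05 for banded over sham, against 2.63% of the 22938 genes listed, and 1 of the 8 for trained over control, against 1.27%. The 3 in the authors' deposited table for surgery were *Cd36* (log2 difference 0.49, FDR 5.17e-28), *Acadm* (-0.45, FDR 1.24e-07) and *Cpt1a* (-0.20, FDR 2.66e-05). In the authors' deposited table for exercise it was *Ppara* (0.36, FDR 1.17e-19). Of these 4, the libraries of the compared groups overlapped in 3, and *Cd36* was the exception. The authors' group value was the log2 of the median CPM of the group's 4 libraries, which it matched within 1e-06 for all 22938 genes in each of the 4 groups. A median and a fitted mean can part ways where 1 library is far off, and the fit also used sham replicates 2 and 3 as 1 sample. *Ucp3* had a log2 difference of 0.54 for banded over sham in the authors' deposited table, against -1.02 in the edgeR fit. *Pdk4* had 0.49 there against -0.05. With sham replicates 2 and 3 kept apart the edgeR fit gave -0.77 for *Ucp3* and 0.10 for *Pdk4*. Neither had an FDR under 0.05 in the authors' deposited table.

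For none of the 8 genes did the effect of banding differ from that of training by a margin the test could show. The banding effect minus the training effect ran from -1.18 for *Ucp3* (SE 1.19) to 0.50 for *Cd36* (SE 0.34) on the log2 scale, and 0 of the 8 passed, against 0.00791% of the 12650 genes tested (edgeR adjusted p = 1.00 for each). No unadjusted p was under 0.05 either, against 3.86% of all genes. The narrowest interval of this difference was that of *Ppara*, from -0.77 to 0.48, and the widest that of *Ucp3*, from -3.71 to 1.34. A difference of 1 log2 unit in either direction lay inside the intervals of both *Pdk4* and *Ucp3*.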

How the data were processed

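The deposited count tables hold unnormalised whole read counts for each gene, with a smallest stored count of 1 in every library. From the exercise counts, 2 lines with no gene name that repeat the column totals were left out. The authors also deposited log2 RPM per gene with an FDR (an adjusted p-value, whose test is not stated), 1 column per group, and log2 fold changes with an FDR between PCM1-positive and PCM1-negative nuclei. Bowtie, SAMtools, edgeR and R 2.15.1 are named in the submitters' processing notes with no roles. No source used here gives the counting rule, strand use or build.

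CPM were computed from all named genes. Counts were tested with edgeR 4.0.16 in R 4.3.3 (quasi-likelihood F test, TMM, filterByExpr with a minimum count of 10 and total of 15, Benjamini-Hochberg adjustment over all genes tested, threshold 0.05). Banded and sham libraries were fitted together, as were trained and control libraries, and the difference between effects and sham over control came from a fit of all 4 groups. SEs and 95% intervals come from the F statistic. All 8 genes passed the filter in each fit. The procedure was tested on simulated data. Alternatives used DESeq2 1.42.0, limma 3.58.1 (voom), other scalings and filters, and libraries left out. Correlations used 100000 two-sided permutations in scipy 1.17.1. The permutations shuffled samples without regard to group or experiment, so their p does not account for either. The correlations had been planned as descriptions, and the permutation p was added later. Every gene of the rule is named in every comparison, and the gene most like a member is printed as an ID for the 2 closest. Further pathway genes and cell type markers were not tested, because the reference gene table carries no Ensembl IDs. Members and lists were chosen with earlier results of these data known. Of the 59 samples, 43 had no count column and are not analysed here, and neither are the histone mark bins.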

Additional observations from a re-analysis of the deposited data

Results flagged for a closer look

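*Cpt1b* in banded replicate 3 stood apart from its group: it was at 355 CPM, while banded replicates 1, 2 and 4 were at 208, 193 and 179 CPM, so that its gap to the nearest library exceeded Dixon's critical value for 4 samples. It was the 1 value beyond that limit among 24 groups of 4 tested, and chance gives about 1 in 20. The sham group, with 3 samples, was not tested.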

How the results depend on the processing

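The count of members past the threshold was 0 in all 4 comparisons, and stayed 0 under every alternative and with each sample left out, except that DESeq2 called 1 member, *Cd36*, for sham over control. Of 652 values of single genes under an alternative, 84 turned the sign of a change that had not passed (lowest adjusted p among them 0.391), 567 kept sign and side of the threshold and 1 passed it. The causes were not tested.

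The groups share replicate numbers, and the labels do not say that these pair the libraries. Same-numbered deviations from the group means correlated at 0.78, 0.55, 0.19 and 0.083 for banded and sham replicates 1 to 4 (other numbers -0.68 to 0.58). All 4 were above 0 and 3 were over 0.1, the limit set for each pair. The pairing was therefore taken neither as shown nor as absent. The same-numbered range was -0.025 to 0.14 for trained and control and 0.032 to 0.34 for sham and control. The share of PCM1-negative-enriched genes was 4.45%, 0.859%, 1.31% and 1.68% in banded replicates 1 to 4. It was 4.32%, 0.685%, 0.658% and 1.58% in sham replicates 1 to 4. Under a replicate block, with sham 2 and 3 not merged, 0 members were called. *Cd36* then had a log2 fold change of 0.52 for banded over sham (SE 0.14, edgeR unadjusted p = 0.00614, adjusted p = 0.562). That fit took sham replicates 2 and 3 as separate samples, although their spread was close to sampling noise. Its SE and p may therefore be too small. *Cd36* was higher in banded in 4 of 4 same-numbered libraries. Any numbering would give this, since every banded library lay above every sham library. For sham over control its edgeR adjusted p was 0.0501. The log2 fold change with the block was 0.061 for *Pdk4* and -0.10 for *Ppargc1a* (banded over sham). It was -0.13 for *Ppargc1a* (banding minus training effect) and -0.10 for *Ucp3* (sham over control). With the block, *Ppargc1a* stood at 0.025 for trained over control. Without the merging and with no block, signs turned for *Pdk4* (0.10) and *Ppargc1a* (-0.025) in banded over sham, *Ppargc1a* (-0.027) in the difference and *Acadm* (0.043) in sham over control.

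With voom, signs turned for *Cpt1a* (0.037) and *Ppargc1a* (-0.086) in banded over sham, *Ppargc1a* (0.039) in trained over control, *Cpt1a* (0.074) and *Ppargc1a* (-0.13) in the difference, and *Pdk4* (0.14), *Cpt1a* (-0.10) and *Ucp3* (-0.10) in sham over control. With no filter they turned for *Ppargc1a* (-0.043) in banded over sham, *Cpt1b* (0.014) and *Cpt1a* (0.017) in trained over control, *Ppargc1a* (-0.0016) in the difference and *Acadm* (0.042) in sham over control. Library totals without TMM gave *Cpt1a* 0.035 in the difference, 1 subtracted from every count gave *Cpt1a* -0.022 in sham over control, and leaving out banded 1 and sham 1 gave *Acadm* 0.23 there.

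With 1 sample left out at a time, the sign of these log2 fold changes turned. For banded over sham the range was -0.39 to 0.47 for *Cpt1a*, -0.35 to 0.091 for *Cpt1b*, -0.071 to 0.23 for *Ppara*, -0.22 to 0.20 for *Ppargc1a*, -0.43 to 0.47 for *Pdk4* and -1.62 to 0.88 for *Ucp3*. For trained over control the range was -0.072 to 0.20 for *Cd36*, -0.13 to 0.18 for *Cpt1a*, -0.15 to 0.14 for *Cpt1b*, -0.37 to 0.12 for *Acadm*, -0.13 to 0.16 for *Ppargc1a* and -0.20 to 0.60 for *Ucp3*. For the banding minus the training effect the range was -0.38 to 0.48 for *Cpt1a*, -0.34 to 0.086 for *Cpt1b*, -0.58 to 0.13 for *Acadm*, -0.21 to 0.21 for *Ppargc1a* and -1.73 to 0.68 for *Ucp3*. For sham over control the range was -0.53 to 0.34 for *Cpt1a*, -0.47 to 0.24 for *Acadm*, -0.78 to 0.39 for *Pdk4* and -1.34 to 0.96 for *Ucp3*.

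Over all genes, calls ran from 0 to 2 across the alternatives for banded over sham (1 in the fit reported), 0 to 37 for trained over control (0; the 37 with DESeq2), 0 to 4 for the difference (1) and 30 to 613 for sham over control (119). With the list of PCM1-negative-enriched genes widened to 2-fold, the share of counts was 5.71% in banded, 5.86% in sham, 3.21% in trained and 3.39% in control libraries on average, against 2.08%, 2.19%, 0.712% and 0.791% with the 8-fold list. With TMM scaling r was 0.72 for *Pdk4* and *Ucp3* and 0.75 for *Cpt1a* and *Acadm*. In alternatives chosen after seeing the data, the values were 0.72 and 0.71 without banded 1 and sham 1, and 0.54 and 0.59 without the 2 farthest samples, both no longer past the threshold after adjustment for 28 pairs. *Ucp3*, with as few as 6 counts in a library, is the gene most limited by depth.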
